A study of Mus musculus with 13 samples.

Results

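In livers of vehicle-treated double-knockout (dKO) mice, sites of the glucocorticoid receptor (GR) were set against sites still recovered with an antibody to NCOR1, the corepressor that had been deleted. A GR peak and an NCOR1-antibody peak that shared at least 1 bp formed a joint site, and peaks without a partner were GR-only or NCOR1-only sites. The 23362 GR peaks and 17282 NCOR1-antibody peaks gave 3998 joint sites, 19364 GR-only sites and 13284 NCOR1-only sites, 36646 in all. The 7 deposited lists together hold 217044 peaks. Each joint GR peak had an NCOR1-antibody peak of its own.

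All samples are livers of male mice, from animals labelled CRE (dKO, in which NCOR1 is among the deleted genes) or GFP (control). Vehicle (saline in the series text) or dexamethasone, a synthetic glucocorticoid, at 1 mg/kg was injected into the peritoneum at zeitgeber time 8, and livers were collected 2 h later at zeitgeber time 10. The groups used here are dKO vehicle (2 GR libraries pooled in 1 list, 1 NCOR1 library) and, for reference, control vehicle (2 GR, 1 NCOR1), control dexamethasone (2 GR, 2 NCOR1) and dKO dexamethasone (2 GR). How Cre was delivered, which liver cells it reached and the animals' age are not given in the sources used here. Liver is a mixture of cells, so a peak does not say which cell type it came from. The antibody was raised against amino acids 1944 to 2453 of NCOR1, and what it recovered in dKO chromatin was not tested. Each group has 1 list, so there is no spread between animals and no test. Intervals are 95% Clopper-Pearson intervals and cover counting error only.

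GR is a nuclear receptor that glucocorticoids activate. It binds palindromes of the hexamer AGAACA in enhancers and promoters and, in liver, drives genes of glucose production and the fasting response. NCOR1 is a scaffold that carries the deacetylase HDAC3 to nuclear receptors without ligand and to the heme receptors REV-ERBα and REV-ERBβ, whose elements in clock gene promoters contain TAGGTCA. ETS factors, which bind CCGGAAG, include both general promoter factors and regulators of endothelial genes.

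The sequences below show what the start-site windows of the 3 classes look like. They come from RefSeq on GRCm38.p6, run from 250 bases before to 50 after the start site in the direction of transcription, and hold the strongest site centres of their class. The joint windows were ranked by NCOR1 tag count alone, not by GR. Capitals mark, on either strand, the GR half-site AGAACA, the REV-ERB and ROR element TAGGTCA, the E-box CACGTG, the ETS site CCGGAAG and the CCAAT box. The first pair are joint windows: H4c3, a histone H4 gene (chr13:23698409-23698708, minus strand), and Nfat5, an osmotic stress factor (chr8:107293220-107293519, plus strand).
H4c3: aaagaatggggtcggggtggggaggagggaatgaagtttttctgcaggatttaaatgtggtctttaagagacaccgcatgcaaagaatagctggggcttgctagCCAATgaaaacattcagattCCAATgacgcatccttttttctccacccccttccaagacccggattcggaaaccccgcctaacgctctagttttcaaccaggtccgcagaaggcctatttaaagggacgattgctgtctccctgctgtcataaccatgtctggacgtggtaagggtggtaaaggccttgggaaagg
Nfat5: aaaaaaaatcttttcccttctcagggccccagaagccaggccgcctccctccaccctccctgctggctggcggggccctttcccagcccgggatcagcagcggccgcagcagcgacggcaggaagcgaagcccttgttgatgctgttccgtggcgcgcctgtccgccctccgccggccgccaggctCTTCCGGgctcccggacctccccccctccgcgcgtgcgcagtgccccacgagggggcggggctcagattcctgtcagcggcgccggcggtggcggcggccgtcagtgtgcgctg
The next pair are NCOR1-only windows: H4c4, another histone H4 gene (chr13:23581318-23581617, plus strand), and Arntl, which encodes the clock activator BMAL1 (chr7:113207261-113207560, plus strand).
H4c4: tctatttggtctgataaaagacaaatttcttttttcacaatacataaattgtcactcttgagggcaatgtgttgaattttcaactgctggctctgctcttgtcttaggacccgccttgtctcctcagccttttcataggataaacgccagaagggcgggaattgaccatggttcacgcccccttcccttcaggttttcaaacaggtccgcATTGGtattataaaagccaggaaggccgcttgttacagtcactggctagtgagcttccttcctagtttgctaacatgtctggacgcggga
Arntl: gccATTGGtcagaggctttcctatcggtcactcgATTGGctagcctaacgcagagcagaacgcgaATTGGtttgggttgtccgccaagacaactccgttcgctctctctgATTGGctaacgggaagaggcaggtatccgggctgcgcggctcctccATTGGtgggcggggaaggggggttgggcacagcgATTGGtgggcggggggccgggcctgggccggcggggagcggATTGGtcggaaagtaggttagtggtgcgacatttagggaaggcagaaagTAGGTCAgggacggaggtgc
The last 3 are GR-only windows: Map10, a microtubule-associated protein gene (chr8:125669568-125669867, plus strand), Slc10a6, a steroid sulfate transporter gene (chr5:103629354-103629653, minus strand), and Sgk1, a glucocorticoid-induced kinase gene (chr10:21993640-21993939, plus strand). Sgk1 was added after its values were seen, because its window holds a full GR palindrome.
Map10: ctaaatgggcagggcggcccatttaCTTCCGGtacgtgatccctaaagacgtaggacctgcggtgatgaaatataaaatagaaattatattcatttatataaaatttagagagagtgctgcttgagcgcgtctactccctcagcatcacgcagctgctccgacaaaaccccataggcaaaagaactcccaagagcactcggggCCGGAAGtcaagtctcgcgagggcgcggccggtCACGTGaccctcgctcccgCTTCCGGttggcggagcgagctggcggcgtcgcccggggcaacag
Slc10a6: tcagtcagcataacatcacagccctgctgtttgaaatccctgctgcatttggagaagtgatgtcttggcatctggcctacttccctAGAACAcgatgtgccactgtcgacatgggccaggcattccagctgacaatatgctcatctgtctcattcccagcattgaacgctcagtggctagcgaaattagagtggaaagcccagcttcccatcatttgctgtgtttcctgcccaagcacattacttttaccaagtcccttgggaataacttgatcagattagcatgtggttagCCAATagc
Sgk1: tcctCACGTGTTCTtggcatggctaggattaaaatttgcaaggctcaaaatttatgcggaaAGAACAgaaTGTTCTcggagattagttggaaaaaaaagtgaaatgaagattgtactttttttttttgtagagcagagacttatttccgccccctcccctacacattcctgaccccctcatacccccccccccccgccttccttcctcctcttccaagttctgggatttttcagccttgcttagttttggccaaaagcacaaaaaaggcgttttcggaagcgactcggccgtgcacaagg

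H4c3 carried 146.6 NCOR1 tags and 11.4 GR tags, and Nfat5 95.3 and 22.2 (tags per 10 M tags, the unit of every tag count here). H4c4 carried 96.7 NCOR1 tags and Arntl 93.9, with no GR peak at either. Map10 carried 66.8 GR tags, Slc10a6 65.8 and Sgk1 57.2, with no NCOR1-antibody peak. The Arntl window holds 7 CCAAT boxes and 1 TAGGTCA, which starts 30 bases after the start site. The palindrome of the Sgk1 window, AGAACA and its reverse complement with any 3 bases between them, occurs in 3 of all 32851 RefSeq start-site windows, and 2 of the 3 hold a GR-only site: Sgk1 and Acnat2, an acyltransferase gene with 64.4 GR tags.

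GR and NCOR1-antibody sites coincided at a minority of either list. Joint sites were 17.1% of GR peaks (interval 16.6 to 17.6%) and 23.1% of NCOR1-antibody peaks (22.5 to 23.8%). In the control vehicle pair, 16290 peaks coincided, which is 54.3% of GR and 41.3% of NCOR1 peaks. With both dKO lists limited to peaks at least 8-fold over input, 10.2% of GR and 17.2% of NCOR1-antibody peaks were joint. Depth was 31.1 M tags for GR and 17.5 M for the NCOR1 antibody, and 3.40% and 2.07% of those tags lay in peaks. The control vehicle NCOR1 library had 17.8 M tags, 8.52% of them in its 39458 peaks. Libraries for GR were not size selected and those for NCOR1 were, per the labels, so the lists differ in preparation as well as in antibody.

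Joint sites were weak GR sites more often than strong ones. Their median GR tag count was 9.47 against 13.0 at GR-only sites, and their median fold over the surrounding 10 kb was 5.99 against 9.1. A value under 8-fold over the surroundings was found at 74.1% of joint and 44.4% of GR-only sites. When GR peaks were split into 5 equal groups by tag count, the joint share from the weakest to the strongest was 24.5, 23.8, 16.3, 9.44 and 11.5%. On the NCOR1 side the order ran the other way: the joint share was 18.1, 21.4, 21.6, 22.7 and 31.9% from the weakest to the strongest group. Median NCOR1 tag count was 10.9 at joint and 10.0 at NCOR1-only sites.

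Where both were called, the peak centres lay close together. The median distance between GR and NCOR1-antibody centres was 46 bp (quartiles 20 and 86 bp), with 2140 joint sites (53.5%) within 50 bp and 3226 (80.7%) within 100 bp. The NCOR1-antibody centre had the higher coordinate at 1982 sites, the lower at 1977 and the same at 39. For comparison, the median distance between dKO vehicle and dKO dexamethasone GR centres was 16 bp over 18330 shared peaks, and between control vehicle GR and NCOR1 centres 31 bp over 16290. Centres at joint sites therefore lay farther apart than in either of those pairs. The NCOR1-antibody peaks themselves moved by a median of 37 bp between the dKO and control vehicle lists (8097 shared peaks).

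The distance varied with the NCOR1 signal and with place, and less with the GR signal. It was 36 bp at the joint sites in the strongest of 5 groups by NCOR1 tag count and 56 bp in the weakest, against 47.5 and 45 bp for the same groups by GR tag count. Within 1000 bp of a start site it was 56 bp (989 sites), and farther away 43 bp (2884 sites). In promoter windows the GR centre lay at a median of 85 bases upstream of the start site (-85) and the NCOR1-antibody centre at -78. The latter was downstream of GR at 276 sites and upstream at 248 of 526. These windows reach farther upstream than downstream of the start, and a joint site was placed by its GR centre. The medians and the order of the centres therefore depend on that choice, and no order was read from them. Over all joint sites within 1000 bp of a start site the median position was -14. At the limit of overlap, 38 joint sites lay in the last 10 bp of centre distance inside it with a median of 12.4 GR tags, and 30 GR-only sites had a partner centre in the first 10 bp beyond it with a median of 10.35. In all, 1258 GR-only sites (6.50%), the 30 included, had an NCOR1-antibody centre within 1 kb.

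**Figure D1:**
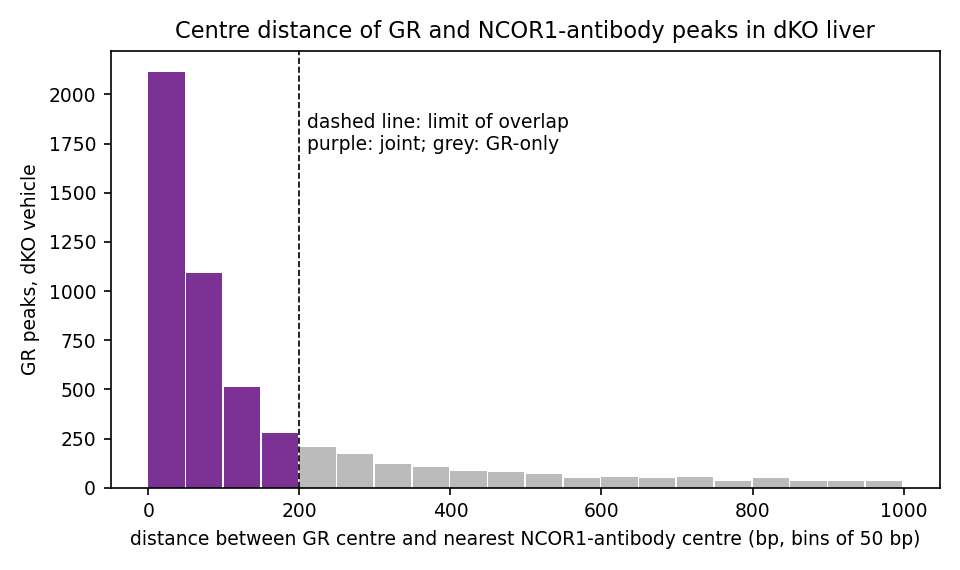
Number of dKO vehicle GR peaks (vertical axis) by distance from the GR centre to the nearest NCOR1-antibody centre (horizontal axis, bp, bins of 50 bp). The first bin holds 2116 joint sites and the last bin before the 200 bp limit 280, and the numbers go on falling among GR-only sites to the right of the dashed line.

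Tag counts of both antibodies were only weakly related at joint sites. Spearman's rho of GR and NCOR1 tag count was 0.135 over 3998 joint sites, given as a description over sites that share their input library. It was 0.211 at the 989 sites within 1000 bp of a start site and 0.117 at the 2884 farther away. With each list limited to its 17282 strongest peaks, rho was 0.050 over 2502 joint sites. The control vehicle GR and NCOR1 lists gave 0.539 over 16290 sites, and the dKO vehicle and dexamethasone GR lists 0.454 over 18330. The fold over input gave 0.385 at joint sites, and both folds are divided by the same input.

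With joint sites put in 4 equal groups by GR tag count, from the lowest to the highest, the median NCOR1 tag count was 9.73, 10.6, 11.4 and 11.4. Over that range of GR signal the NCOR1 median thus differed by less than 2 tags. Of the 100 strongest joint sites by GR and the 100 strongest by NCOR1, 6 were the same.

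**Figure D2:**
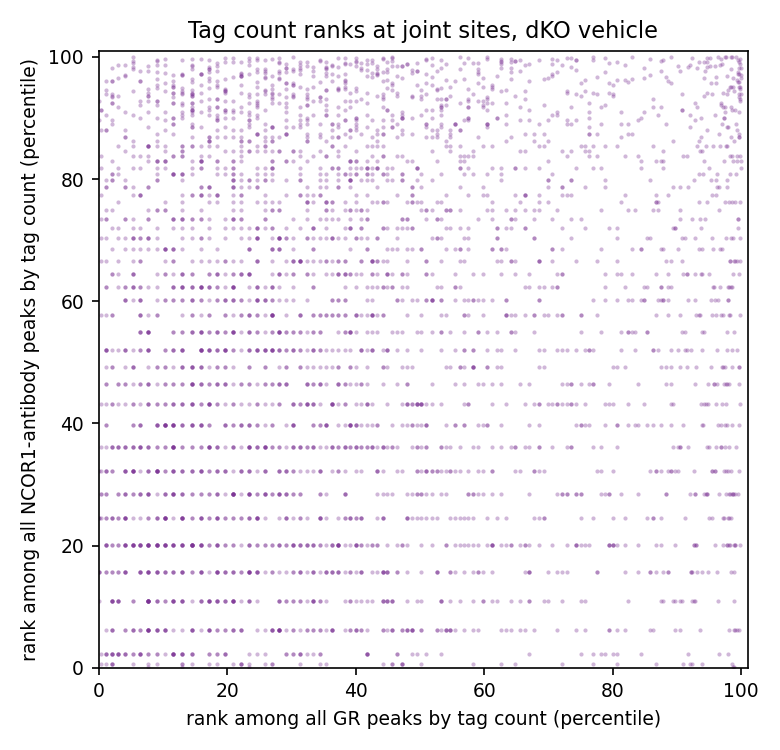
Each point is 1 of the 3998 joint sites, placed by its percentile rank by tag count among all GR peaks (horizontal axis) and among all NCOR1-antibody peaks (vertical axis) of dKO vehicle liver. Points fill the square (rho 0.135), with more of them at low GR ranks, and lie in rows and columns because many weak peaks share a tag count.

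The joint sites with the strongest NCOR1-antibody signal were of more than 1 kind. The highest was in Fam227b (chr2:126147771-126147971, mm10), with 196.1 NCOR1 and 67.4 GR tags and centres 0 bp apart. Next came Ybx3, a cold-shock domain protein gene, with 150.8 and 49.9, and a site 29.0 kb outside Insc, a spindle orientation gene, with 149.4 and 36.1. Acacb, the mitochondrial acetyl-CoA carboxylase, had 144.6 and 47.5. Hapln1, a matrix link protein gene, had 105.1 and 19.9, and a site 9.61 kb outside Prxl2b 95.3 and 36.9. At these 6 sites the centres were at most 8 bp apart.

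The same 6 sites, which were chosen for a high dKO value, were higher with the NCOR1 antibody in dKO than in control vehicle liver, where the tag counts were 135.3, 95.6, 50.6, 88.6, 37.1 and 52.6 in that order. In control dexamethasone they were 36.6, 29.4, 18, 28.7, 15 and 15.7, all below control vehicle. GR tags at the 6 sites were 64.3, 56.8, 67.2, 37.9, 18.6 and 32.2 in control vehicle and 29.1, 29.0, 18.5, 26.0, 11.0 and 20.8 in control dexamethasone. Both antibodies thus gave lower values in the dexamethasone list at each of the 6. Over all joint sites also called in control vehicle NCOR1, 804 of 3026 (26.6%) had the higher tag count in dKO.

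The other strong joint sites had lower NCOR1 tag counts in dKO than in control vehicle, had little GR or, at Nfat5, hardly differed between the genotypes. Npas2, a BMAL1 partner of the clock, had 124.8 NCOR1 and 14.6 GR tags, and 236.3 NCOR1 tags in control vehicle. The locus 1700010I14Rik had 98.8 NCOR1 and 5.46 GR tags, and 189.6 NCOR1 tags in control vehicle. H4c3 had 75.7 NCOR1 tags in control vehicle against 146.6 in dKO, and Nfat5 95.9 against 95.3. GR at H4c3 and 1700010I14Rik was only 4.38 and 5.25-fold over input, near the authors' limit of 4.

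The strongest GR sites that were joint carried modest NCOR1 signal. The highest was in Klf13, a Krüppel-like factor gene (chr7:63896963-63897163), with 433.8 GR and 21.8 NCOR1 tags, the strongest GR peak of the list. Zbtb16, a zinc finger repressor and classical GR target, had 311.1 and 15.2. Lpp followed with 267.1 and 25.8, St3gal5 with 224.3 and 26.9, and Trpm3 with 199.2 and 15.5. These 3 sites lay 66.8, 7.72 and 61.6 kb outside those genes. Zfp36, which encodes the mRNA-decay factor tristetraprolin, had 175.2 and 31.2, and Cdkn1a, the cell-cycle inhibitor p21, 148.7 and 51.5. Tns1 had 155.9 and 20.9, Ccnd3 146.9 and 15.7, and a site on chromosome 8 without a gene body in 100 kb 156.8 and 23.5. Each of the 10 was also called in all 5 other lists, with control vehicle NCOR1 tags between 43.0 at Ccnd3 and 143.7 at Cdkn1a, all above the dKO value.

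Many of the strongest GR sites had no NCOR1-antibody peak in dKO. Ptpn1, a tyrosine phosphatase gene 86.0 kb away, had 418.7 GR tags, Armc12 333.3, and the clock gene Per1 275.0. The nonagouti gene had 264.1, Lrriq1 243.7, Pou4f3 233.4, Plcg2 212.2, a second Zbtb16 site 210.1, Cdh23 205.8 and Adk 203.7. The sites at Armc12, nonagouti, Lrriq1 and Pou4f3 lay 12.7, 1.84, 54.4 and 31.4 kb outside those genes. All the GR-only sites named here fell into 2 kinds in control vehicle liver. At Ptpn1, Armc12, Per1, nonagouti, Zbtb16 and Adk the control NCOR1 list had a peak of 92.3, 37.4, 36.3, 76.8, 37.4 and 33.2 tags. At Lrriq1, Pou4f3, Plcg2 and Cdh23 neither control NCOR1 list had one. GR at these 4 was 256.5, 232.4, 240.1 and 193.8 tags in control vehicle and 177.2, 160.3, 139.2 and 123.7 in control dexamethasone. Among the first 6, GR was also lower in control dexamethasone than in control vehicle at Armc12 (512.3 and 560.1), Per1 (314.9 and 344.4), Zbtb16 (233.3 and 311.1) and Adk (257.4 and 352.7), while Ptpn1 had 626.2 and 626.3 and nonagouti 617.2 and 542.6.

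NCOR1-only sites were led by histone and clock genes. After H4c4 and Arntl came Kat6a, a histone acetyltransferase gene, with 92.5 NCOR1 tags, and a site on chromosome 11 without a gene body in 100 kb with 81.0. Dapk2 had 74.4, the clock output gene Dbp 66.7, and Nr1d1, which encodes REV-ERBα, 65.5. H4f16 had 63.8, Cpne8 62.4 and Gna13 61.8. The Dapk2, Cpne8 and Gna13 sites lay 4.82, 87.0 and 15.1 kb outside those genes. All 10 NCOR1-only sites were also called in both control NCOR1 lists. The tag count was higher in dKO than in control vehicle at H4c4 (50.9 there), Kat6a (76.0), Dapk2 (31.2), H4f16 (50.6) and Gna13 (26.7), and lower at Arntl (100.4), Dbp (96.8), Nr1d1 (92.8), Cpne8 (97.9) and the chromosome 11 site (271.7).

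The widest gaps between the ranks in the 2 lists were found away from start sites, none of them within 5000 bp of one. With high GR and low NCOR1 rank stood Il22ra1, an interleukin-22 receptor gene (56.0 GR and 6.01 NCOR1 tags), Cadps2 (40.8 and 6.58), Slco1b2, a hepatocyte uptake transporter gene (31.1 and 6.58), and sites on chromosomes 5 and 8 without a gene (56.5 and 6.01, 51.9 and 6.30). With low GR and high NCOR1 rank stood Id4 (4.98 and 31.2), Ralgds (4.82 and 24.9), 1700010I14Rik, and Tspan18 (5.30 and 34.6). The Slco1b2 and Id4 sites lay 13.9 and 70.7 kb outside those genes. At Id4, Ralgds and Tspan18 the control vehicle NCOR1 tag count was 13.5, 11.3 and 21.1, below dKO at each, and at 1700010I14Rik it was above dKO. These sites were chosen for a high dKO NCOR1 rank.

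Over all peaks, joint sites resembled NCOR1-only sites more than GR-only sites in their distance to gene ends. A protein-coding gene end lay within 1000 bp of 978 joint sites (24.5%, interval 23.1 to 25.8%), 2668 GR-only sites (13.8%, 13.3 to 14.3%) and 3619 NCOR1-only sites (27.2%, 26.5 to 28.0%). The median distance to a gene end was 12503 bp at joint, 18171.5 bp at GR-only and 9410.5 bp at NCOR1-only sites. More than 50 kb from any gene end lay 22.4% of joint, 29.6% of GR-only and 18.5% of NCOR1-only sites. Inside a gene body lay 52.4% of joint, 55.7% of GR-only and 56.9% of NCOR1-only sites.

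The difference between joint and GR-only sites was seen at each level of GR tag count. In the 5 equal groups from the weakest to the strongest GR peaks, 25.3, 27.9, 16.6, 24.5 and 26.8% of joint sites lay within 1000 bp of a gene end. Of GR-only sites in the same groups, 14.2, 11.4, 11.1, 14.6 and 17.2% did. Among peaks at least 8-fold over input, the share was 17.9% for joint, 14.1% for GR-only and 21.6% for NCOR1-only sites. Joint sites of that strength thus lay about midway between the other classes.

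Start sites, which the RefSeq windows give with their strand, showed the same order. Within 250 bp of a start site lay 19.1% of joint, 7.18% of GR-only and 19.8% of NCOR1-only sites. Of those within 1000 bp, 52.6% of joint and 54.6% of NCOR1-only sites lay upstream of the start, against 37.7% of GR-only sites. Their median position was 14 bases upstream for joint (-14), 19 upstream for NCOR1-only (-19) and 85 downstream for GR-only sites (85).

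**Figure D3:**
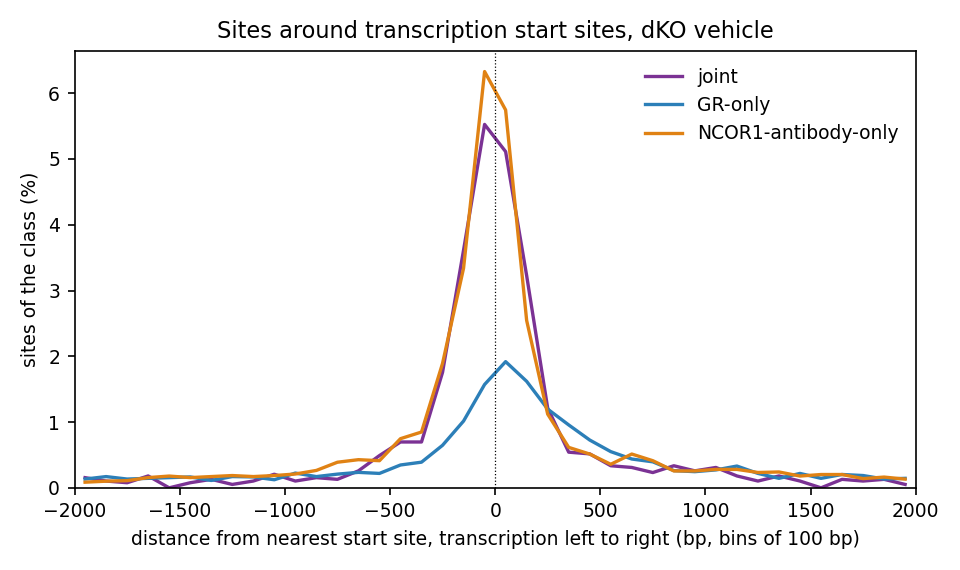
Share of the sites of each class (vertical axis, %) by distance of the site centre from the nearest RefSeq start site (horizontal axis, bp, bins of 100 bp, transcription running left to right). Joint and NCOR1-only sites peak just upstream at 5.53% and 6.33% of their class, and GR-only sites peak just downstream at 1.92%.

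Start-site windows of the classes also differed in letters. The window held a site centre of the joint class at 610, of the GR-only class at 847 and of the NCOR1-only class at 2239 of 32851 start sites. These start sites belong to 27025 genes, and windows of neighbouring start sites can overlap. Joint sites in the windows numbered 526, so some were counted in several windows. The intervals on letters treat each window as separate and may therefore be too narrow. CCGGAAG, the ETS core, was found on either strand in 27.2% of joint (23.7 to 30.9%), 25.6% of NCOR1-only (23.8 to 27.5%) and 12.8% of GR-only windows (10.6 to 15.2%), and in 8.86% of all windows. Among windows with at least 15 CpG, where letters of this kind are more frequent, the shares were 31.7, 28.5, 15.6 and 18.9% in that order. Joint and NCOR1-only windows thus held it more often than GR-only windows and the whole set, also among CpG-rich windows.

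Over all windows of a class, whatever their CpG number, other letters differed by fewer percentage points between joint and GR-only windows. GGGCGG, the GC box, was in 57.5% of joint, 68.0% of NCOR1-only, 58.8% of GR-only and 35.7% of all windows. AGAACA was in 14.8, 10.6, 15.2 and 19.0%, TAGGTCA in 1.15, 2.46, 2.13 and 2.61%, and CCAAT in 27.5, 31.7, 33.4 and 37.4%. The E-box CACGTG was in 11.6, 12.2, 11.1 and 7.15%, and TGACGTCA, the cAMP response element, in 4.75, 4.15, 2.95 and 1.79%. The last of these followed the order of the ETS core, with intervals that overlapped between joint (3.21 to 6.76%) and GR-only windows (1.92 to 4.33%). Among windows with at least 15 CpG, GGGCGG was in 67.2% of joint, 77.1% of NCOR1-only, 81.7% of GR-only and 76.8% of all windows. Joint windows thus held it less often than the other groups there. AGAACA was in 11.3, 9.41, 6.79 and 8.68% of these CpG-rich windows. Its intervals overlapped between joint (8.56 to 14.5%) and GR-only windows (4.82 to 9.24%). A match describes the window and is not a binding site.

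Most joint sites were present in control liver as well, for both antibodies. Of joint sites, 73.2% overlapped a control vehicle GR peak, 75.7% a control vehicle NCOR1 peak, and 2404 (60.1%) both. All 5 other lists held 1768 of them (44.2%), and 502 (12.6%) were in neither control NCOR1 list. GR-only sites were in the control vehicle GR list at 85.5% and in the NCOR1 list at 38.9%. NCOR1-only sites were in those lists at 11.6% and 38.2%. Thus 6622 NCOR1-only sites (49.8%) were in neither control NCOR1 list, although those lists hold 39458 and 37700 peaks.

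Where a site was in both NCOR1 vehicle lists, the median tag count was 11.2 in dKO and 22.5 in control at joint sites, and 11.4 and 13.5 at NCOR1-only sites. Stronger dKO peaks were more often in the control list. By 5 equal groups of NCOR1 tag count, from the weakest, 70.5, 68.7, 72.8, 75.2 and 85.6% of joint and 21.3, 28.4, 36.9, 46.2 and 62.1% of NCOR1-only sites were called in control vehicle. By 5 equal groups of GR tag count, from the weakest, 61.6, 79.7, 88.0, 75.7 and 80.1% of joint and 51.1, 61.3, 46.0, 18.2 and 23.8% of GR-only sites had a control vehicle NCOR1 peak. The gap between the classes was thus smallest among the weakest GR peaks. Joint sites absent from the control vehicle NCOR1 list were weaker for GR (median 7.71 tags against 9.95) and 53.6% of them were in the control vehicle GR list, against 79.4% of the others.

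**Figure D4:**
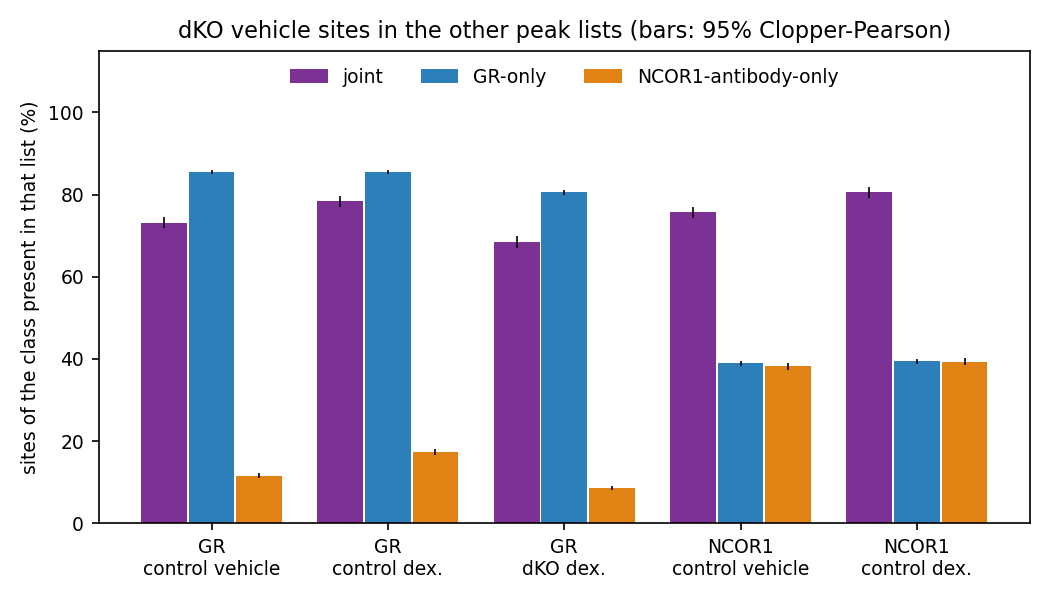
Share of joint, GR-only and NCOR1-only sites of dKO vehicle liver (vertical axis, %) that overlapped a peak of each of the 5 other lists (horizontal axis), with 95% Clopper-Pearson intervals that cover counting error only. Joint sites reach 68.4% or more in every list, GR-only sites 80.5% or more in the GR lists, and NCOR1-only sites 39.3% at most.

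The classes were carried by overlapping sets of genes. With each site assigned to the nearest protein-coding gene body within 100 kb, joint sites fell on 2873 of 21887 genes (13.1%), GR-only sites on 8724 (39.9%) and NCOR1-only sites on 6871 (31.4%). Any class was carried by 12274 genes (56.1%), all 3 classes by 1233, joint sites alone by 642, GR-only alone by 4158 and NCOR1-only alone by 2513. Among peaks at least 8-fold over input, joint sites fell on 1292 genes and NCOR1-only sites on 4424, and among the 17282 strongest peaks of each list joint sites fell on 1885.

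The genes with most sites overlapped between classes: Gse1 had 6 joint, 14 GR-only and 15 NCOR1-only sites. Many were long, such as Tenm3 (1297 kb), Sox5 (954 kb), Wwox (913 kb) and Rora (735 kb), while S1pr1 (4.62 kb) and Kdr (46.2 kb) were shorter. Site numbers were not adjusted for gene length. S1pr1, a sphingosine-1-phosphate receptor gene of endothelial and immune cells, had 7 joint sites, all outside its body, and Ets1, an ETS factor gene, Gse1, Rad51b, Rora, Tns1 and Wwox had 6 each. GR-only sites were most numerous at Foxn3 (19), Lpp and Tenm3 (18 each), Sox5 (17) and Rora (16). NCOR1-only sites were most numerous at Rad51b (17), Arhgap26, Etv6 and Kdr (16 each), and Gse1, Nav1 and Tcf4 (15 each). Kdr, the VEGF receptor 2 gene of endothelial cells, had 16 peaks in the dKO NCOR1 list and 6 in control vehicle. The dKO list had more peaks also at Nav1 (15 and 2), Ets1 (16 and 7) and Tcf4 (16 and 11), and as many at Etv6 (16 and 16) and S1pr1 (15 and 15). It had fewer at Gse1 (21 and 43), Rad51b (23 and 34), Arhgap26 (20 and 33), Rora (10 and 43), Tns1 (10 and 25) and Wwox (14 and 27).

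Classical GR targets carried all 3 classes, with GR-only sites in the majority, as they were among all sites (19364 of 36646). Of 22 such genes, 14 carried joint sites, 18 GR-only sites and 14 NCOR1-only sites. These are 63.6, 81.8 and 63.6%, against 13.1, 39.9 and 31.4% of all genes. The sites were 79 GR-only, 28 NCOR1-only and 25 joint. The 25 joint sites had a median of 24.4 GR tags, against 9.47 at all joint sites. Fkbp5, the FK506-binding cochaperone of GR, had joint sites of 16.7 and 13.5 GR tags with 14.6 and 11.2 NCOR1 tags, beside 6 GR-only sites of up to 66.0 GR tags. Klf9, a Krüppel-like factor gene, had a joint site of 104.5 GR and 38.6 NCOR1 tags. Zbtb16 had 4 joint and 13 GR-only sites, and Klf13 4 and 2. Mt1, a metallothionein gene, had a joint site at its start with 58.3 GR and 10.6 NCOR1 tags, and Tsc22d3, which encodes GILZ, 1 joint site of 12.7 and 9.45 and 9 GR-only sites of up to 41.6. Dusp1 had 4 GR-only sites and an NCOR1-only site of 27.8 tags 2 bp from its start.

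Sites at genes of glucose production were mainly GR-only, as were 19364 of all 36646 sites. Of 27 genes of gluconeogenesis and amino acid catabolism, 25 carried GR-only, 11 joint and 11 NCOR1-only sites. These are 92.6, 40.7 and 40.7%, against 39.9, 13.1 and 31.4% of all genes. The sites were 87 GR-only, 26 NCOR1-only and 16 joint. Pck1, the cytosolic PEP carboxykinase, had 2 GR-only sites of 23.9 and 16.1 tags, and Tat, tyrosine aminotransferase, 4 of 16.7 to 45.0, with no NCOR1-antibody site at either. Ppargc1a, the coactivator PGC-1α, had 10 GR-only sites of at most 23.8 tags and no other. G6pc, the glucose-6-phosphatase gene, had 1 joint site 6.14 kb outside its body with 17.5 GR and 9.73 NCOR1 tags, and 4 GR-only sites, 1 of them 94 bases upstream of its start with 15.6 tags. Control vehicle liver had an NCOR1 peak of 97.3 tags at the stronger Pck1 site and of 83.3 at the strongest G6pc GR-only site.

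A few genes of the same list had strong NCOR1-antibody signal. Irs2, the insulin receptor substrate, had a joint site of 60.4 NCOR1 and 24.1 GR tags, 44.6 kb outside its body. Pdk4, the pyruvate dehydrogenase kinase, had one of 46.4 and 13.0 at its start. Foxo3 had 32.3 and 26.3. Foxo1 had 9 NCOR1-only sites, the strongest of 24.3 tags and 54.8 kb outside its body. In control vehicle these NCOR1 signals were 158.1 at Irs2, 89.2 at Pdk4, 78.8 at Foxo3 and 9.28 at Foxo1.

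Most clock genes carried NCOR1-only sites, and most carried GR-only sites. Of 19 genes, 17 carried NCOR1-only, 16 GR-only and 7 joint sites. These are 89.5, 84.2 and 36.8%, against 31.4, 39.9 and 13.1% of all genes. Arntl had 7 NCOR1-only sites and 1 GR-only site of 9.15 tags. Nr1d1 had a joint site of 74.7 NCOR1 and 14.0 GR tags 7.98 kb outside its body, besides the NCOR1-only site at its start. Cry2 had an NCOR1-only site of 22.6 tags and Nr1d2, which encodes REV-ERBβ, one of 24.0. Per1 had 2 GR-only sites, of 275.0 and 132.3 tags, and no NCOR1-antibody site. Per2 had a joint site of 115.3 GR and 17.2 NCOR1 tags that was not in the control vehicle NCOR1 list. Of the 41 NCOR1-only sites, 25 (61.0%) were in the control vehicle NCOR1 list, against 38.2% of all NCOR1-only sites.

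GR-only sites were the most numerous class in the other metabolic lists, as they were among all sites (19364 of 36646). Lipogenesis genes had 53 GR-only, 18 NCOR1-only and 12 joint sites, bile acid and cholesterol genes 32, 16 and 11, and fatty acid oxidation and ketogenesis genes 24, 15 and 7. Lipogenesis genes (21) carried GR-only sites at 18, NCOR1-only at 13 and joint at 9, with all 12 joint sites in the control vehicle NCOR1 list. Of all genes, 39.9% carried GR-only, 31.4% NCOR1-only and 13.1% joint sites, against 85.7, 61.9 and 42.9% of the lipogenesis genes. After Acacb, the joint sites with most NCOR1 tags were those of Insig1 (21.5), Scd1, the stearoyl-CoA desaturase (18.3), and Thrsp (17.2). Lpin1, a phosphatidate phosphatase gene, had a GR-only site of 130.4 tags, and Srebf1, the SREBP1 gene, an NCOR1-only site of 33.2. Bile acid and cholesterol genes (18) carried the classes at 16, 8 and 8 in that order, or 88.9, 44.4 and 44.4%. Cyp7a1, which encodes the hydroxylase that starts the conversion of cholesterol to bile acids, had a joint site 202 bp outside its body with 22.8 GR and 8.87 NCOR1 tags, where control vehicle NCOR1 had 67.0. Abca1, a cholesterol exporter, had a joint site at its start with 38.9 NCOR1 and 9.47 GR tags. Fatty acid oxidation and ketogenesis genes (19) carried GR-only and NCOR1-only sites at 10 each (52.6%) and joint sites at 5 (26.3%).

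Of 19 genes of the acute phase and inflammation, 17 carried GR-only, 8 joint and 7 NCOR1-only sites. These are 89.5, 42.1 and 36.8%, against 39.9, 13.1 and 31.4% of all genes. The acute-phase factor gene Stat3 had a joint site of 47.8 NCOR1 and 12.5 GR tags near its start. Cebpb had a GR-only site of 44.3 and Fga, a fibrinogen gene, a joint site of 22.5 GR and 12.9 NCOR1 tags at its start. Of 22 corepressor and nuclear receptor genes, 19 carried GR-only, 14 NCOR1-only and 12 joint sites, or 86.4, 63.6 and 54.5%. Rxra, the shared partner of many nuclear receptors, had a joint site of 71.3 GR and 15.7 NCOR1 tags. Nr1i2, the xenobiotic receptor PXR, had a GR-only site of 85.9 and Rarb, a retinoic acid receptor gene, an NCOR1-only site of 53.2 at a start site. Ncor1 itself had an NCOR1-only site of 12.6 tags 139 bases upstream of its start and a GR-only site of 20.7. Nr3c1, the GR gene, had 1 joint, 5 GR-only and 4 NCOR1-only sites, and Hdac3 a single GR-only site of 21.0 tags. A peak at Ncor1 does not measure its deletion.

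Markers of liver cell types differed between the NCOR1-antibody lists. Of all genes, 37.1% had a peak in the dKO, 52.3% in the control vehicle and 52.2% in the control dexamethasone NCOR1 list, and all 14 endothelial markers had one in each. In dKO these were 80 peaks with a summed tag count of 1192, against 61 peaks and 925 in control vehicle. As a share of the list, they were 0.463% of dKO, 0.155% of control vehicle and 0.170% of control dexamethasone NCOR1 peaks. Hepatocyte identity genes went the other way: 12 of 22 had a peak in dKO, 21 peaks in all with a summed tag count of 251, against all 22, 157 peaks and 5001 in control vehicle. That is 0.122% of the 17282 dKO and 0.398% of the 39458 control vehicle NCOR1 peaks. GR lists did not differ this way, with hepatocyte identity genes taking 0.312% of dKO vehicle and 0.327% of control vehicle GR peaks, and endothelial markers 0.154% and 0.157%.

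The endothelial sites were chiefly NCOR1-only. Of the 14 markers, 13 carried NCOR1-only sites, 10 GR-only sites and 7 joint sites. These are 92.9, 71.4 and 50%, against 31.4, 39.9 and 13.1% of all genes. The 66 NCOR1-only sites outnumbered the 22 GR-only and 14 joint sites. Besides Kdr, they lay at Erg, an endothelial ETS factor gene (11, strongest 30.3 tags), Flt1, VEGF receptor 1 (8, 21.5), Pecam1, the adhesion molecule CD31 (7, 27.8), Cdh5, VE-cadherin (5, 29.2), and Tek, the angiopoietin receptor (5, 19.8). Of the 66, 19 (28.8%) were in the control vehicle NCOR1 list, against 38.2% of all NCOR1-only sites. In either control list were 28 of the 66, while 49.8% of all NCOR1-only sites were in neither. Joint sites with many NCOR1 tags were found at Eng, endoglin (42.1, with 10.3 GR tags), Vwf, von Willebrand factor (33.8 and 7.71), and Oit3, a sinusoidal endothelial gene (28.9 and 12.2). Not every marker had more NCOR1-antibody peaks in dKO than in control vehicle. Kdr (16 and 6), Erg (13 and 3), Flt1 (8 and 4), Tek (6 and 3) and Clec4g (4 and 1) had more. So did Cdh5 (5 and 3), Pecam1 (8 and 7) and Oit3 (3 and 2), while Stab1 had 2 in each. Fewer were found at Stab2 (6 and 13), Vwf (4 and 8), Tie1 (1 and 3), Eng (3 and 4) and Lyve1 (1 and 2).

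Markers of the other cell types carried NCOR1-antibody sites at shares on either side of those of all genes (31.4% for NCOR1-only and 13.1% for joint sites). NCOR1-only sites were carried by 4 of 16 Kupffer cell and leukocyte, 5 of 12 stellate cell, 3 of 8 cholangiocyte and 2 of 12 neuronal genes, and joint sites by 1, 1, 3 and 0. These are 25, 41.7, 37.5 and 16.7% for NCOR1-only sites and 6.25, 8.33, 37.5 and 0% for joint sites. In the dKO NCOR1 list, Kupffer cell and leukocyte markers had 5 peaks with a summed tag count of 50.9, against 9 and 113 in control vehicle. As a share of the list these were 0.0289% and 0.0228%. Stellate cell markers had 6 and 66.6, against 5 and 38.3, or 0.0347% and 0.0127% of the list. Cholangiocyte markers had 6 and 57.3, against 32 and 665, or 0.0347% and 0.0811%. With so few peaks, no order was read from these shares. Whether NCOR1-antibody sites of dKO liver come from cells that kept the gene was not tested, and fewer cells of a type and less signal per cell cannot be told apart in these bulk samples.

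Housekeeping promoters formed another group of NCOR1-only sites. Of 30 ribosomal protein genes, 21 carried NCOR1-only, 6 GR-only and 3 joint sites. These are 70, 20 and 10%, against 31.4, 39.9 and 13.1% of all genes, so the GR-only and joint shares were lower. Of the 24 NCOR1-only sites, 20 lay within 1000 bp of a gene end, as did 27.2% of all NCOR1-only sites. The strongest was at Rps19 with 25.5 tags, followed by Rps6 with 16.3. Rpl27 had the strongest joint site, with 24.7 GR and 19.8 NCOR1 tags. Of 22 proteasome, splicing and translation genes, 14 carried NCOR1-only, 8 GR-only and 6 joint sites, or 63.6, 36.4 and 27.3%. Here the GR-only share was near that of all genes. The dKO NCOR1 list had peaks at 25 of the 30 ribosomal protein genes, and the control vehicle and dexamethasone NCOR1 lists at 22 and 24, beside the 37.1, 52.3 and 52.2% of all genes given above.

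Histone H4 genes, a group chosen after values were seen, held some of the strongest NCOR1-antibody promoter sites. Of 13 H4 genes, 7 carried NCOR1-only sites with a median of 54.4 tags and 2 (H4c3 and H4c9, the latter with 89.0 NCOR1 and 8.67 GR tags) joint sites. These are 53.8% for NCOR1-only and 15.4% for joint sites, against 31.4 and 13.1% of all genes. H4c11, H4c12 and H4c6 had only 19.2, 25.8 and 26.3 NCOR1 tags, and 4 of the 13 genes had no site. The sites of all 9 genes that had one were also called in both control NCOR1 lists. Their summed NCOR1 tag count was 583 in dKO vehicle and 354 in control vehicle, whereas the GR lists had at most 3 H4 genes with a peak.

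**Figure D5:**
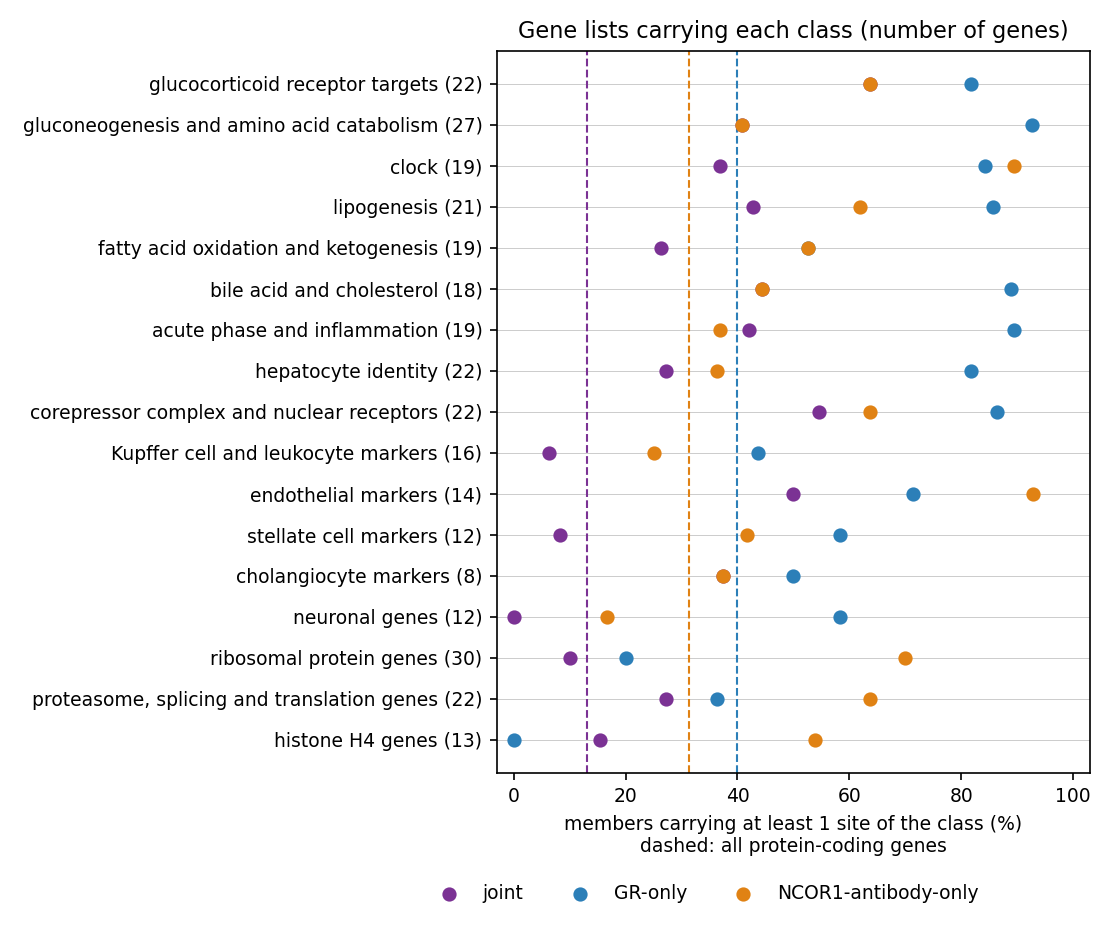
Share of the genes of each list (rows, with the number of genes) that carry at least 1 joint, GR-only or NCOR1-only site (horizontal axis, %), with dashed lines at the share of all protein-coding genes. The GR-only share is highest in the gluconeogenesis list (92.6%), and NCOR1-only shares in the endothelial (92.9%), clock (89.5%) and ribosomal protein (70.0%) lists.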

How the data were processed

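The submitters' processing notes name Trim Galore 0.6.4, BWA 0.7.17, HOMER 4.11, bedtools 2.29.2 and the mm10 build. Libraries of a group were pooled by the authors into 1 peak list, and peaks of 200 bp were called with HOMER findPeaks against 1 input library from control vehicle liver, per the file headers. The headers require a tag density 4-fold that of input and 4-fold that of the 10 kb around the peak, and a p-value of 0.0001, with peaks at least 400 bp apart and a tag threshold of 15 (GR) or 12 (NCOR1 antibody, at a false discovery rate of 0.001) in the dKO vehicle lists. The normalized tag count is a deposited signal in tags per 10 M tags. Folds over input and over the surroundings are deposited ratios, and the findPeaks score and the Poisson p-value of each peak are deposited values that were not used for any result.

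Peaks were paired by nearest centre, with an overlap of at least 1 bp. The calls were compared with bedtools 2.31.1, and 0 differed. The steps were tested on simulated data. Python 3.11.15, pandas 2.3.3 and scipy 1.17.1 were used. Genes are the 21887 protein-coding bodies of RefSeq on GRCm38.p6, which mm10 denotes, and start sites are 32851 RefSeq windows with none on chromosome 18, so 778 GR and 564 NCOR1-antibody peaks there have no start-site distance. A joint site was placed by its GR peak. No test was made, because each group has 1 list. Absence from a list does not show that a site was unbound. The tag count of a called peak is the authors' value, and differences between lists were not tested.

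Named genes are those nearest the 10 strongest sites of each class, the 5 widest rank gaps each way, the 5 genes with most sites, the strongest members of each gene list, and a fixed set of GR, clock and corepressor genes, of which some are not reported here. The classes, lists and comparisons were chosen with earlier results of these data known. The histone H4 and tRNA groups and the Sgk1 window were chosen after their values were seen. Alternatives were another overlap rule, a stricter fold, equal list lengths, an equal minimum tag count, all genes and a shorter gene distance.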

Additional observations from a re-analysis of the deposited data

How the results depend on the processing

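Of 86 values recomputed under 7 alternatives, 32 stayed within the counting interval of the value in the report, or for gene counts within 1.5 times it, and 54 did not. The order of joint and NCOR1-only above GR-only sites near gene ends was the same under each. With an overlap of at least 100 bp, 13.8% of GR and 18.7% of NCOR1-antibody peaks were joint, the centre distance was 35 bp, and 21.8% of joint and 14.6% of GR-only sites lay near a gene end. The control vehicle GR and NCOR1 lists then held 69.2 and 71.1% of joint, 82.4 and 35.2% of GR-only, and 9.92 and 33.3% of NCOR1-only sites. With centres within 400 bp, 19.7 and 26.7% of peaks were joint, the distance was 56 bp, and 27.4% of joint, 12.7% of GR-only and 26.3% of NCOR1-only sites lay near a gene end. The control lists then held 75.4 and 78.6%, 86.8 and 41.5%, and 13.1 and 41.1% of the 3 classes in that order.

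At 8-fold over input or more (15902 GR and 9429 NCOR1-antibody peaks), 10.2 and 17.2% were joint, the distance was 40 bp and rho 0.189, and 17.9% of joint and 21.6% of NCOR1-only sites lay near a gene end. Joint sites then fell on 1292 and NCOR1-only sites on 4424 genes, as fewer peaks entered. The control GR list held 75.7% of joint, 90.4% of GR-only and 16.6% of NCOR1-only sites, and the control NCOR1 list 31.7% of GR-only and 42.5% of NCOR1-only sites. With the 17282 strongest peaks of each list, 14.5% of each were joint, rho was 0.050, 22.7% of joint sites lay near a gene end, and joint sites fell on 1885 genes. The control lists then held 88.1 and 82.4% of joint, 94.1 and 34.3% of GR-only, and 15.2 and 40.8% of NCOR1-only sites. With a minimum of 5.72 tags in both lists, 21.2% of NCOR1-antibody peaks were joint, the control GR list held 77.1% of joint and 88.7% of GR-only sites, and the control NCOR1 list 78.0% of joint sites. With all annotated genes, 30.8% of joint, 18.6% of GR-only and 32.7% of NCOR1-only sites lay near a gene end. Gene counts with a distance of 10 kb stayed within 1.5 times. The causes of these differences were not tested.

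No paired analysis was possible because each group has 1 pooled list with no value per replicate, and leaving out a replicate was not run for the same reason. The NCOR1 antibody in dKO liver rests on 1 library of 17.5 M tags, and the authors' limits on fold over input and over the surroundings removed 7356 and 5686 of its 30324 candidate peaks. Whether sites absent from its list were unbound, too weak for that depth or removed by these limits was not tested.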

Other observations

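Genes of transfer RNA (tRNA), which RNA polymerase III transcribes, were looked at after the values were seen. Of 408 tRNA genes, 22 lay within 200 bp of a joint site, 4 of a GR-only site and 55 of an NCOR1-only site. These are 0.550% of joint sites (interval 0.345 to 0.832%), 0.0207% of GR-only sites (0.00563 to 0.0529%) and 0.414% of NCOR1-only sites (0.312 to 0.539%). The joint sites there had a median of 14.85 tags, and 15 of the 22 were in the control vehicle NCOR1 list. The control NCOR1 lists, which are longer, held 47 (vehicle) and 90 (dexamethasone) such genes, or 0.119 and 0.239% of their peaks. The other GR lists held 23 (control vehicle), 33 (control dexamethasone) and 26 (dKO dexamethasone), or 0.0766, 0.0808 and 0.0916%. Of 1004 small nuclear RNA genes, 18 lay near an NCOR1-only, 6 near a GR-only and 1 near a joint site. For 1340 small nucleolar RNA genes these counts were 4, 7 and 1, and for 1228 microRNA genes 11, 24 and 2. As shares of the sites of each class in that order, small nuclear RNA genes had 0.136, 0.0310 and 0.0250%. Small nucleolar RNA genes had 0.0301, 0.0361 and 0.0250%, and microRNA genes 0.0828, 0.124 and 0.0500%.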
